A study of Mustela putorius furo and Mus musculus with 4 samples.

Results

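The genes described here encode enzymes of glycolysis and the subunits of lactate dehydrogenase: Hk1, Pfkp, Aldoa, Tpi1, Gapdh, Pgk1, Eno1, Pkm, Ldha and Ldhb. They were chosen by gene symbol and not by a cutoff on a measured value, but earlier results of these data were known. All 10 had a row among the 17170 genes of the mouse table. Of these, 9 had a row among the 22008 genes of the ferret table, under the same symbols in capitals, and PFKP was not analysed here in the ferret.

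Glycolysis splits glucose into pyruvate in the cytosol and yields a little ATP without oxygen. Pyruvate then either enters mitochondria for oxidation or is turned into lactate by lactate dehydrogenase, a tetramer of A and B subunits whose A-rich forms are typical of lactate-making tissues and whose B-rich forms are typical of lactate-using tissues. Neural stem cells are known for active glycolysis and neurons for a greater reliance on oxidative phosphorylation, and several steps of the pathway have isozymes encoded by separate genes that differ between cell types.

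The study profiled single cells of the mouse cortex at embryonic day 18 and of the ferret cortex at embryonic day 39. The mouse cells came from hGFAP-Cre; Smo F/F embryos (Smo-cKO), in which Cre driven by a human GFAP promoter deletes Smo, the receptor-like transducer of Sonic Hedgehog signaling, in cortical radial glia and their offspring, and from littermate Smo F/F embryos without Cre (control, called wild type in the sample labels), both of strain CD1. Both genotypes had the dye CellTrace Yellow injected into the lateral ventricle at day 17, and dye-labeled cells were sorted 24 hours later. The ferret cells came from the cortex of 1 wild-type embryo and carry 2 barcode suffixes, called set 1 and set 2. There was 1 library for each mouse genotype, so no difference between genotypes has a replicate check, and the intervals given below (95%, exact) cover counting error only. The 2 ferret sets are cells of the same animal.

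After filtering, 10498 control and 7209 Smo-cKO mouse cells and 10185 and 13052 ferret cells remained, with medians of 4033.5, 4836, 2556 and 3563 UMIs (unique molecular identifiers, 1 for each captured transcript) per cell. In all kept cells Smo was at 7.78 CPM (UMIs of a gene per 1000000 UMIs of the same cells) in control and 0.476 in Smo-cKO. The counts are tags from the 3′ ends of transcripts, and whether these lie in the floxed part of Smo is not given in the sources used here. Gli1 and Ptch1, which Sonic Hedgehog signaling switches on, were at 2.61 and 14.2 CPM in control and at 0.0476 and 2.21 in Smo-cKO. Cells were clustered without the glycolysis genes and the clusters were named by marker genes. The classes used here are radial glia-like cells that did not cycle (RG-like), cells like the intermediate progenitors of pyramidal neurons (IPC-like), pyramidal neuron-like cells (PyN-like) and Egfr- and Olig2-expressing cells like the basal multipotent progenitors of glia and interneurons (bMIPC-like). There were 1330 RG-like, 2000 IPC-like, 3775 PyN-like and 567 bMIPC-like cells in control and 1129, 1255, 3135 and 148 in Smo-cKO. Clusters named as cycling were kept as classes of their own and are not in these numbers. They held 1165 control and 556 Smo-cKO cycling RG-like cells and 814 and 182 cycling bMIPC-like cells. Ferret set 1 held 421 RG-like, 770 IPC-like and 3797 PyN-like cells, and set 2 held 534, 877 and 4507. Cycling IPC-like cells, 565 in set 1 and 603 in set 2, and cycling RG-like cells, 224 and 220, were again kept apart. The 15 RG markers summed to 36127 CPM in control RG-like, 1934 in IPC-like and 1034 in PyN-like cells. Of these markers, 12 stood out in the RG-like cluster led by Aldoc. Only 4 did so in the RG-like cluster with Gfap among its leading genes, which held 662 of the 1330 control cells. A share of 38.7% of the cells of ferret set 1 and 36.1% of set 2 lay in clusters that stayed unnamed and entered no comparison. When cells were instead chosen one by one by markers, 7952 cells of set 1 and 9945 of set 2 were PyN-like. The ferret PyN-like class used here may therefore leave out many neurons. Doublets were not removed, and 28 barcodes in the mouse and 38 in the ferret occurred in both libraries or sets.

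Transcripts of the glycolysis and lactate genes took up a smaller share of the transcriptome in PyN-like than in RG-like cells in both mouse libraries and both ferret sets. Summed over the 10 genes they made up 0.458% of all UMIs in control RG-like cells, 0.303% in IPC-like cells and 0.243% in PyN-like cells. In Smo-cKO the 3 shares were 0.526%, 0.354% and 0.273%. The 9 ferret genes made up 0.414%, 0.254% and 0.215% in set 1 and 0.519%, 0.268% and 0.245% in set 2. Among these 3 classes the share was lowest in PyN-like cells of every library, with IPC-like cells in between. Interneuron-like cells were lower still, at 0.201% in control, 0.202% in Smo-cKO, and 0.187% and 0.178% in the ferret sets. Microglia-like mouse cells lay above RG-like cells, at 0.674% in control and 0.923% in Smo-cKO. Ferret microglia-like cells lay below ferret RG-like cells, at 0.227% and 0.283%. Cycling RG-like and bMIPC-like control cells were at 0.368% and 0.403%. Cycling IPC-like ferret cells were at 0.362% in set 1 and 0.446% in set 2. Control RG-like cells held 22.6 UMIs of the 10 genes per cell, of 4937 UMIs on average, and PyN-like cells 8.82, of 3629. The 10 mitochondrially encoded genes of the respiratory chain went the other way, from 0.825% of UMIs in control RG-like to 1.24% in PyN-like cells, and the ratio of the glycolytic to the mitochondrial sum was 0.555 in control RG-like and 0.196 in PyN-like cells. In ferret set 1 this ratio was 0.311 in RG-like and 0.130 in PyN-like cells.

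**Figure D1:**
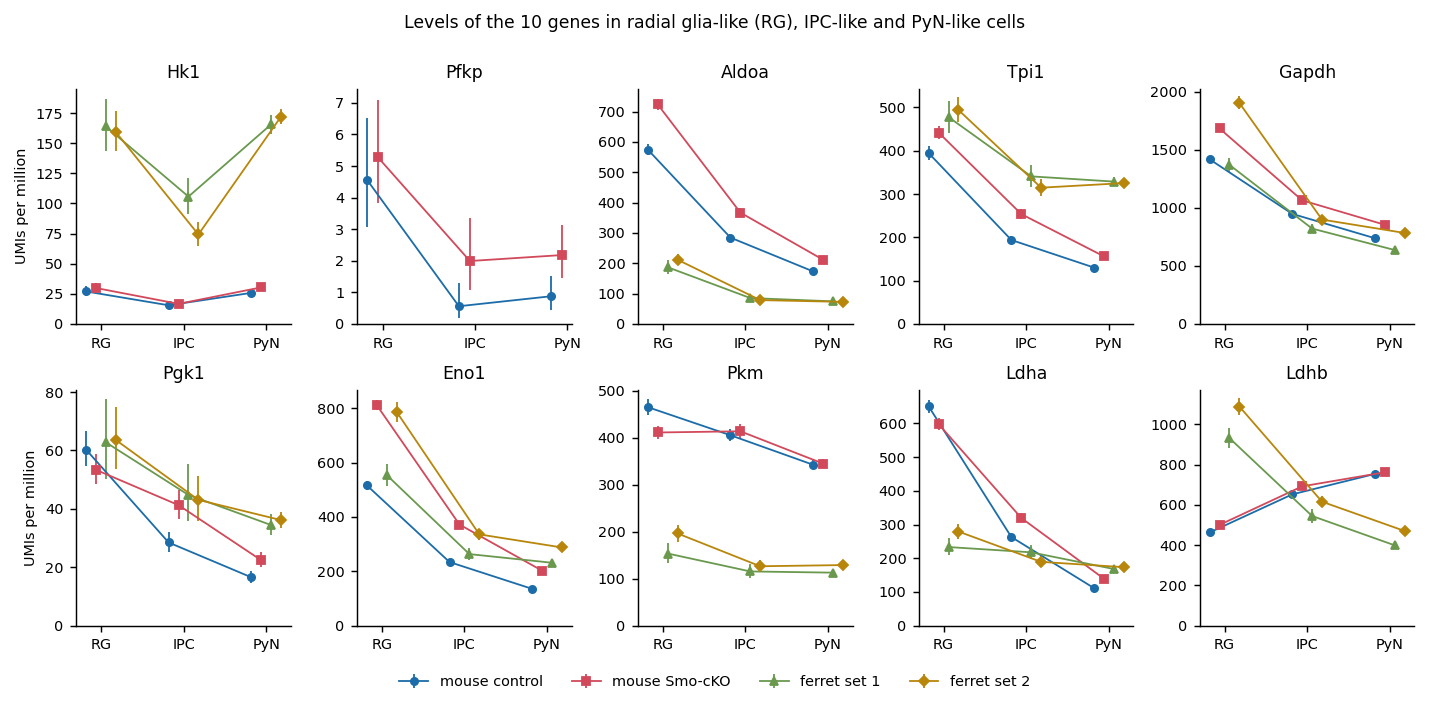
Levels of each of the 10 genes, as CPM (UMIs per 1000000 UMIs of the class), in RG-like, IPC-like and PyN-like cells of the 2 mouse libraries and the 2 ferret sets; bars are 95% Poisson intervals of the summed UMIs and lines join the classes of a library. In most panels PyN-like cells are lowest, for Hk1 IPC-like cells are lowest, and the mouse and ferret lines for Ldhb run in opposite directions (463 to 754 in mouse control, 932 to 399 in ferret set 1).

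Taken gene by gene, 6 of the 9 mouse genes with at least 50 UMIs were lower by 1.5-fold or more in PyN-like than in RG-like control cells and 1 was higher, against a background of 25.3% of 10828 genes lower and 25.2% higher. In Smo-cKO 7 of 10 were lower and 1 was higher, where 25.7% of all genes were lower and 27% were higher. In ferret set 1, 5 of 9 genes were lower and 0 were higher, against 20.8% and 23.1% of all genes. In ferret set 2, 8 of 9 were lower and 0 were higher, against 24.4% and 23%. The median log2 ratio of PyN-like to RG-like cells over the genes was -1.60 in control, -1.26 in Smo-cKO, -0.87 in ferret set 1 and -0.82 in set 2, while the median over all genes lay at 0.03, 0.05, 0.01 and -0.03. The higher gene in the mouse was Ldhb, which stood close to the threshold: over the alternative settings its log2 ratio ran from 0.58 to 0.79 in control and from 0.48 to 0.64 in Smo-cKO, and the call was lost in both when cells were chosen one by one and in Smo-cKO under further settings.

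Hexokinase traps glucose in the cell by phosphorylating it. Hk1 (chr10:62268855-62379908 in the mouse build GRCm38, minus strand), the hexokinase of brain and of most tissues, was at 27.0 CPM in control RG-like, 15.5 in IPC-like and 25.8 in PyN-like cells, and at 29.8, 16.7 and 30.3 in Smo-cKO. It was therefore the gene of the list whose PyN-like level matched the RG-like level most closely, with a ratio of 0.956 (0.796 to 1.15) in control and 1.02 (0.865 to 1.20) in Smo-cKO. The ferret values had the same shape, with 164, 106 and 166 CPM in set 1 and 159, 74.2 and 172 in set 2. In both mouse libraries and both ferret sets the IPC-like cells were lowest of the 3 classes, with IPC-like to RG-like ratios of 0.574 (0.456 to 0.721) in control, 0.558 (0.444 to 0.699) in Smo-cKO, 0.645 (0.531 to 0.783) in set 1 and 0.466 (0.393 to 0.552) in set 2.

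Phosphofructokinase commits the sugar to glycolysis. Pfkp (chr13:6579768-6648777, minus strand), the platelet-type subunit of that enzyme, was close to the limit of what these libraries can measure. It was at 4.57 CPM (3.08 to 6.52) in control RG-like cells and at 0.876 (0.453 to 1.53) in PyN-like cells, from fewer than 50 UMIs in all, and no call was made there. In Smo-cKO it was at 5.28 (3.82 to 7.11) in RG-like and 2.18 (1.46 to 3.13) in PyN-like cells, a ratio of 0.413 (0.249 to 0.678).

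The middle of the pathway, from the cleavage of fructose bisphosphate by aldolase to the oxidation of glyceraldehyde phosphate, was at lower levels in PyN-like cells in both species. Aldoa (chr7:126795234-126800751, minus strand), aldolase A, went from 574 CPM in control RG-like to 285 in IPC-like and 173 in PyN-like cells and from 723 to 367 and 212 in Smo-cKO. In the ferret it went from 187 to 85.3 and 74.4 in set 1 and from 212 to 78.5 and 72.7 in set 2. The level in PyN-like cells was lower by 3.32-fold (3.15 to 3.49) in control, 3.42-fold (3.27 to 3.57) in Smo-cKO, 2.51-fold (2.17 to 2.89) in set 1 and 2.91-fold (2.62 to 3.23) in set 2, so that Aldoa passed the threshold in every library. The annotation holds another gene ID under this symbol, at chr7:126800790-126809108, and the table does not tell them apart. Tpi1 (chr6:124810586-124814296, minus strand), triose phosphate isomerase, interconverts both products of that cleavage. Its levels in RG-like and PyN-like cells were 394 and 130 in control, 442 and 156 in Smo-cKO, 478 and 329 in ferret set 1, and 494 and 325 in set 2. The mouse ratios were 0.330 (0.311 to 0.351) and 0.353 (0.334 to 0.373), and the ferret ratios, at 0.688 (0.633 to 0.749) and 0.658 (0.618 to 0.702), were nearer to 1, with only set 2 past the threshold. Gapdh (chr6:125161715-125166467, minus strand), the dehydrogenase that reduces NAD+, is often used as a reference gene for expression. It was at 1419 CPM in control RG-like, 949 in IPC-like and 739 in PyN-like cells, at 1685, 1066 and 855 in Smo-cKO, at 1371, 822 and 637 in ferret set 1, and at 1905, 899.9 and 784 in set 2. The PyN-like level of Gapdh was lower by 1.92-fold (1.87 to 1.98) in control, 1.97-fold (1.92 to 2.02) in Smo-cKO, 2.15-fold (2.04 to 2.27) in set 1 and 2.43-fold (2.35 to 2.51) in set 2.

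The lower part of the pathway, which yields ATP, showed both large and small differences. Pgk1 (chrX:106187100-106203699, plus strand), phosphoglycerate kinase, was at 60.3 CPM in control RG-like and 16.6 in PyN-like cells, at 53.4 and 22.4 in Smo-cKO, at 62.8 and 34.5 in ferret set 1 and at 63.6 and 36.2 in set 2. Its ratios of 0.275 (0.232 to 0.324), 0.420 (0.361 to 0.488), 0.549 (0.433 to 0.702) and 0.568 (0.474 to 0.684) all passed the threshold. Eno1 (chr4:150236721-150248879, plus strand), enolase 1, was at 516 and 135 in control, 811 and 202 in Smo-cKO, 554 and 232 in set 1 and 787 and 288 in set 2. It was lower in PyN-like cells by 3.81-fold (3.6 to 4.04), 4.01-fold (3.83 to 4.19), 2.39-fold (2.2 to 2.6) and 2.73-fold (2.59 to 2.88), the second largest of the 9 in mouse control. Pkm (chr9:59656368-59679375, plus strand), the muscle pyruvate kinase gene whose spliced forms M1 and M2 cannot be told apart in these counts, had the PyN-like level nearest to the RG-like one after Hk1 in both mouse libraries and ferret set 1. It was at 466 and 343 in control, 412 and 345 in Smo-cKO, 154 and 113 in set 1 and 196 and 129 in set 2, and its ratios of 0.736 (0.703 to 0.771), 0.839 (0.802 to 0.878), 0.735 (0.635 to 0.854) and 0.657 (0.594 to 0.728) passed the threshold in set 2 only.

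**Figure D2:**
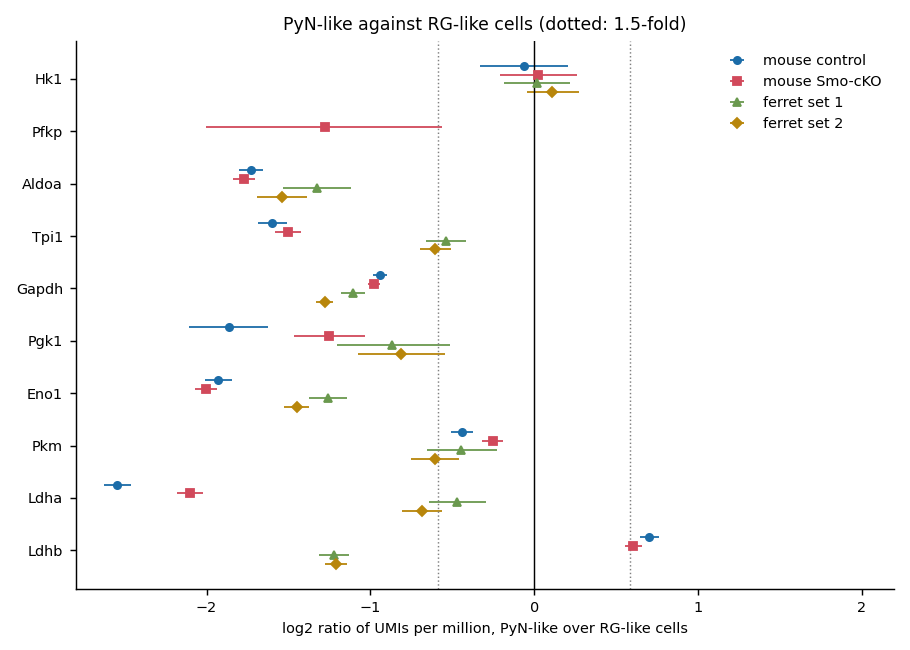
Log2 ratio of CPM in PyN-like over RG-like cells for each gene with at least 50 UMIs in the comparison, in 2 mouse libraries and 2 ferret sets; bars are 95% counting intervals. Points left of 0 are lower in PyN-like cells; Ldha lies farthest left in the mouse (-2.54 in control) and Ldhb lies right of 0 in the mouse (0.70 and 0.61) and left of it in the ferret (-1.22 and -1.21).

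Lactate dehydrogenase was the step where the species differed in direction. Ldha (chr7:46841475-46855627, plus strand), which encodes the A subunit, was at 650 CPM in control RG-like, 263 in IPC-like and 111 in PyN-like cells, and at 598, 319 and 139 in Smo-cKO. It showed the largest difference of the listed genes with at least 50 UMIs in both mouse libraries, 5.84-fold lower (5.50 to 6.19) in PyN-like cells of control and 4.29-fold lower (4.07 to 4.53) in those of Smo-cKO. Ldhb (chr6:142490249-142507957, minus strand), which encodes the B subunit, ran the other way, from 463 to 652 and 754 in control and from 501 to 692 and 762 in Smo-cKO. The PyN-like to RG-like ratio of Ldhb was 1.63 (1.56 to 1.70) in control and 1.52 (1.47 to 1.58) in Smo-cKO, and the IPC-like to RG-like ratio was 1.41 (1.35 to 1.47) and 1.38 (1.33 to 1.44). The sum of both genes therefore differed less than either gene, from 1113 CPM in control RG-like to 865 in PyN-like cells and from 1098 to 901 in Smo-cKO.

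In the ferret both subunit genes were lower in PyN-like cells, and the difference was larger for LDHB. LDHA was at 233, 218 and 168 CPM in RG-like, IPC-like and PyN-like cells of set 1 and at 279, 189 and 174 in set 2. LDHB was at 932, 545 and 399 in set 1 and at 1089, 616 and 470 in set 2. The PyN-like level of LDHB was 2.33-fold lower (2.19 to 2.49) in set 1 and 2.31-fold lower (2.21 to 2.42) in set 2, whereas that of LDHA was 1.39-fold lower (1.23 to 1.56) and 1.61-fold lower (1.48 to 1.75). The mouse cells were sorted for a dye taken up at the ventricle and no sorting is described for the ferret cells, so species, stage and sorting cannot be told apart here.

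The share of Ldha in the summed UMIs of Ldha and Ldhb, which does not depend on the other genes, was 58.4% (57.3 to 59.5) in control RG-like, 28.7% (27.7 to 29.7) in IPC-like and 12.9% (12.3 to 13.5) in PyN-like cells. In Smo-cKO it was 54.4% (53.4 to 55.4), 31.6% (30.5 to 32.7) and 15.4% (14.8 to 16.1). The order of the 3 classes was the same in both libraries and the intervals of the classes did not overlap. Ferret RG-like cells had an Ldha share of 20.0% (18.1 to 22.0) in set 1, IPC-like cells of 28.5% and PyN-like cells of 29.6% (28.5 to 30.8). For set 2 the values were 20.4% (19.0 to 21.9), 23.5% and 26.9% (26.1 to 27.8). Over the whole class the ferret Ldha share was thus higher in PyN-like than in RG-like cells of both sets, the opposite order to the mouse. Not every ferret PyN-like cluster had that order. The cluster led by NRP1 was at 20.9% (18.8 to 23.2) in set 1 and 18.7% (17.1 to 20.4) in set 2, intervals that overlap those of RG-like cells. A cluster led by ZFPM2 was at 15.6% (6.49 to 29.5) in set 2, and the one led by PRSS12 and BCL6 was at 43.9% and 44.0%. Microglia-like cells had the highest Ldha share of the named classes in the mouse, at 94.3% (92.8 to 95.6) in control and 97.4% (96.7 to 98.0) in Smo-cKO, and 67.6% (59.1 to 75.4) and 61.7% (54.1 to 68.9) in the ferret sets.

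**Figure D3:**
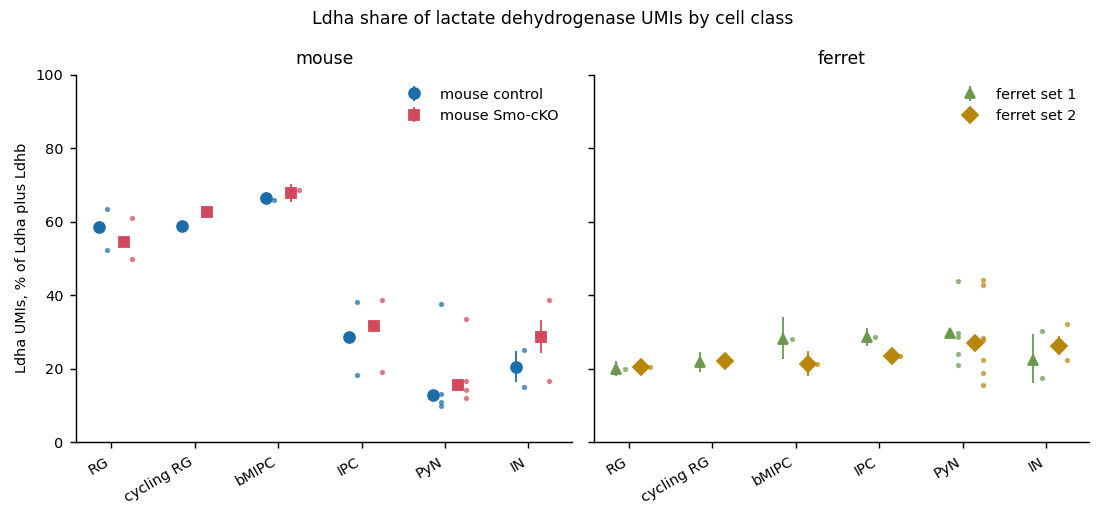
Percent of the UMIs of Ldha plus Ldhb that were Ldha, by cell class, in the mouse (left) and ferret (right); large symbols are classes with 95% Clopper-Pearson intervals, and small dots are their clusters of at least 50 cells. Mouse RG-like, cycling RG-like and bMIPC-like cells lie between 54.4% and 67.8% and IPC-like, PyN-like and interneuron-like (IN) cells between 12.9% and 31.6%, while the ferret classes shown lie between 20.0% and 29.6%.

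Clusters within a class differed in this share. Among the 4 PyN-like mouse clusters it was 9.81%, 10.9% and 13.2% in control for those led by Pcp4, Plxna4 and Zic1, and 37.6% (34.7 to 40.7) for the cluster led by Stmn2, Shtn1 and Mef2c. In Smo-cKO these 4 clusters had 11.9%, 14.2%, 16.6% and 33.4%. The Stmn2-led cluster stood apart through both genes, with Ldha at 263 CPM in control, where the other 3 had 88.4 to 116, and Ldhb at 436, where the others had 765 to 813. Hk1 was also highest there, at 52.8 CPM in control against 18.8 to 27.2. The IPC-like cells split as well: the Neurog2-led cluster had an Ldha share of 38.1% and the Eomes-expressing cluster led by Kif26b had 18.4% in control, with 38.6% and 19.0% in Smo-cKO. The RG-like cells consisted of a cluster led by Aldoc and Fabp7, with 52.3% in control, and a cluster with Gfap among its leading genes, with 63.5%, whose Ldha level was 749 CPM against 545 in the first. In the ferret the share ranged from 20.9% to 43.9% over 5 PyN-like clusters of set 1 and from 15.6% to 44.0% over 7 of set 2. The FEZF2-expressing ferret cluster led by RSPO3 had the highest summed level of the listed genes among PyN-like clusters, 3209 CPM in set 1 and 3880 in set 2, with LDHB at 780 and 781.

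The level within single cells had the same pattern. In control RG-like cells the quartiles of Ldha per cell were 239, 538 and 953 CPM, and in PyN-like cells they were 0, 0 and 174. For Ldhb they were 198, 387 and 675 in RG-like cells and 356, 701 and 1092 in PyN-like cells. At 3629 UMIs in the average PyN-like cell, 1 UMI is already worth more than the upper quartile of Ldha, so a value of 0 there means only that no UMI was captured.

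For 3 further steps of the pathway the partner isozyme of a listed gene had a row, and the balance between partners differed between classes (the plot of isozyme shares). Aldoc, the aldolase of astrocytes and radial glia, was at 1169 CPM in control RG-like cells and at 10.1 in PyN-like cells, so that Aldoa made up 33.0% (32.1 to 33.8) of both in RG-like, 91.5% in IPC-like and 94.5% (93.5 to 95.4) in PyN-like cells. The sum of the aldolase genes therefore differed more than Aldoa alone, from 1743 to 183 CPM. In the ferret the Aldoa share was 53.1% (48.5 to 57.6) and 52.1% (48.8 to 55.3) in RG-like and 73.4% and 74.5% in PyN-like cells. Hk2, the inducible hexokinase, gave Hk1 a share of 40.0% (35.4 to 44.7) in control RG-like and 85.1% (81.3 to 88.4) in PyN-like cells, with a sum of 67.5 and 30.3 CPM. Ferret cells had almost no HK2, and HK1 made up at least 98.7% of the pair in RG-like, IPC-like and PyN-like cells of both sets. Eno2, the neuronal enolase, was higher in PyN-like cells in every library, and the share of Eno1 was 99.4% in RG-like and 94.3% in PyN-like cells of control, 93.4% and 74.4% in ferret set 1, and 96.0% and 74.1% in set 2.

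**Figure D4:**
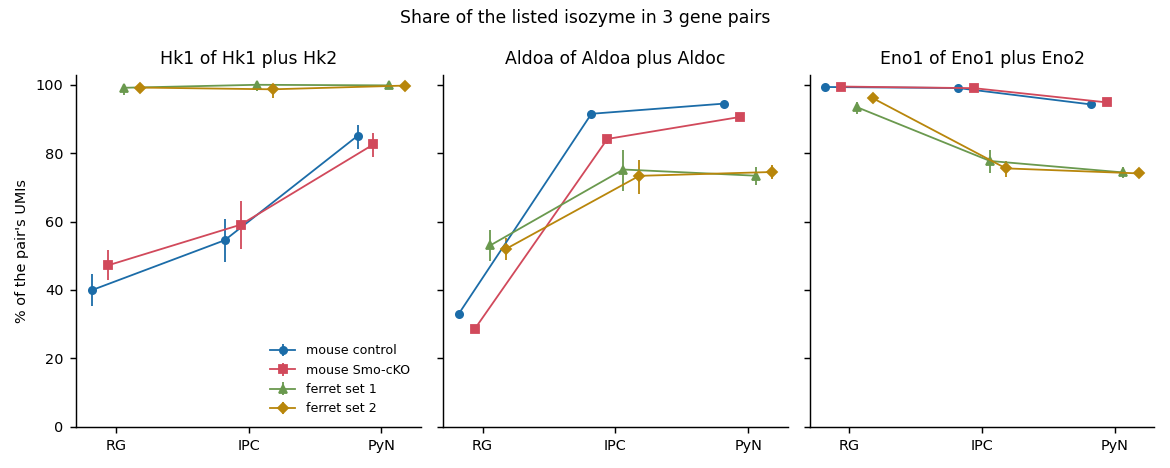
Percent of the UMIs of a pair of isozyme genes that belonged to the listed gene (Hk1, Aldoa or Eno1), in RG-like, IPC-like and PyN-like cells; bars are 95% Clopper-Pearson intervals. In mouse control the Hk1 share is 40.0% in RG-like and 85.1% in PyN-like cells, the Aldoa share is higher in PyN-like cells in both species, and the Eno1 share is lower there, to 74.1% in ferret set 2.

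Other genes of glucose metabolism were read from lists beside these 10, and their counts stand against the same shares of all genes. Those were 25.3% lower and 25.2% higher in control and 25.7% and 27% in Smo-cKO. In the ferret they were 20.8% and 23.1% in set 1 and 24.4% and 23% in set 2. Of 9 other glycolysis genes, 5 were lower in PyN-like than in RG-like control cells (Hk2, Gpi1, Pfkl, Aldoc and Pgam1) and Eno2 was higher, at a ratio of 2.46. In the ferret 3 of the 8 with enough UMIs were lower in each set (PFKL, ALDOC and PGAM1), and ENO2 was again higher, by 2.05-fold and 3.10-fold. Of 10 genes of glucose and lactate transport and pyruvate entry into mitochondria with enough UMIs, 5 were lower and 0 were higher in control. These were Slc16a3, the lactate exporter MCT4, at a ratio of 0.0799, Pdk1 and Pdk3, kinases that hold back pyruvate dehydrogenase, at 0.341 and 0.359, Slc2a1, the glucose transporter GLUT1, and Pdha1. In the ferret 5 of 9 were lower in each set, with SLC2A1 at ratios of 0.200 and 0.178, PDK2 at 0.335 and 0.520 and PDK1 at 0.588 and 0.504, and 1 was higher in set 2, the monocarboxylate transporter gene SLC16A7 at 2.04. Of 4 pentose phosphate genes in control only Tkt was past the threshold, at a ratio of 0.319, a count near the 25.3% of all genes that were lower. In Smo-cKO 5 other glycolysis genes, 5 of transport and pyruvate entry and 1 of the pentose phosphate pathway were lower, and 1, 0 and 0 were higher.

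Of 8 hypoxia response genes with enough UMIs, 4 were lower in control PyN-like cells and 0 were higher, where 25.3% and 25.2% of all genes were. Egln3, an oxygen-sensing hydroxylase, was at a ratio of 0.0659, Vegfa at 0.239 and Bnip3, a mitophagy receptor, at 0.473. In both ferret sets 3 of 9 were lower, with VEGFA at 0.406 and 0.227, BNIP3 at 0.288 and 0.210 and DDIT4 at 0.546 and 0.285, and 2 were higher, NDRG1 and CA9, counts near the shares over all genes (20.8% lower and 23.1% higher in set 1, 24.4% and 23% in set 2). Of the 10 mitochondrially encoded genes, 3 were past 1.5-fold higher in control PyN-like cells (mt-Co1 at 1.68, mt-Cytb at 1.59 and mt-Nd4 at 1.53) and 0 were lower, with a median log2 ratio of 0.54. The count of 3 higher genes is near the 25.2% of all genes that were higher. In Smo-cKO 1 of the 10 was higher and 0 were lower, against 27% and 25.7% of all genes, with a median of 0.49. In ferret sets 1 and 2 none of the 10 passed the threshold, at medians of 0.33 and 0.27.

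Between genotypes the listed genes differed less than between classes. In RG-like cells 2 of 10 were higher in Smo-cKO and 0 were lower, counting genes whose larger level exceeded the smaller by 25% or more, against 15.3% and 12.8% of 10516 genes, and the share of the listed genes is near that background. In IPC-like cells 4 of 9 were higher and 0 were lower, against 16.4% and 6.84%. In PyN-like cells 2 of 9 were higher and 0 were lower, against 12.3% and 5.43%. The genotypes filled the clusters of a class unevenly. The Neurog2-led IPC-like cluster held 975 of 2000 control and 708 of 1255 Smo-cKO cells, and the RG-like cluster with Gfap held 662 of 1330 and 428 of 1129. Within single clusters, computed after seeing the data, 4 of 9 genes were higher in the Neurog2-led and 2 of 9 in the Kif26b-led IPC-like cluster. In the RG-like clusters 2 and 1 of 9 were higher, and in the 4 PyN-like clusters 3 to 5, with 0 lower in each. Higher counts were found in microglia-like cells, with 6 of 8 genes higher and 1 (Ldhb) lower in the Spp1-led cluster. The microglia-like cluster with Ifi27l2a had 6 of 7 higher and 0 lower. The share of all genes past the threshold was not computed within clusters, so these counts have no background. Some calls rest on few UMIs, such as Hk1 at 1.33 (0.732 to 2.45) in the Zic1-led PyN-like cluster. The median log2 ratio over the genes was 0.15, 0.28 and 0.26 in the 3 classes, and over all genes it was 0.01, 0.06 and 0.05. Of the other glycolysis genes 1 of 9 was higher in Smo-cKO RG-like cells, 5 of 8 in IPC-like and 5 of 9 in PyN-like cells, and 0 were lower in each class.

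Eno1 passed the threshold in all 3 classes. It was at 516 CPM in control and 811 in Smo-cKO for RG-like cells, at 234 and 372 in IPC-like cells and at 135 and 202 in PyN-like cells, ratios of 1.57 (1.51 to 1.64), 1.59 (1.5 to 1.69) and 1.49 (1.41 to 1.59). It was higher within each RG-like cluster, at 478 against 760 in the Aldoc-led cluster and 553 against 889 in the one with Gfap. In microglia-like cells, which arise outside the brain, the ratio was 1.58 (1.43 to 1.75), with 1.51 (1.34 to 1.69) in the cluster led by Spp1 and 1.84 (1.47 to 2.31) in the one with Ifi27l2a, which held 25 of 96 control and 100 of 177 Smo-cKO cells. In interneuron-like cells it was 1.41 (1.09 to 1.84), whereas in the few vascular-like cells it was 0.888 (0.666 to 1.18). The largest ratio, 2.13 (1.98 to 2.30), was in cycling bMIPC-like cells.

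**Figure D5:**
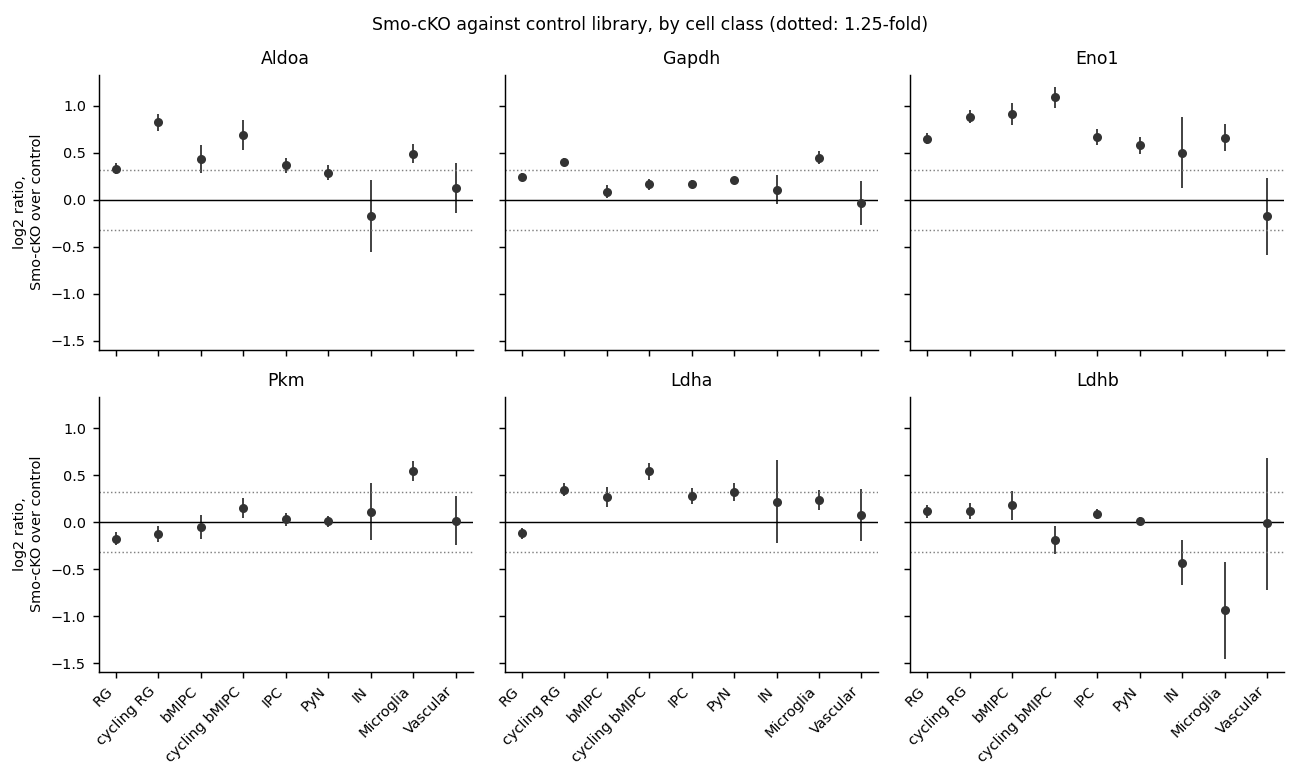
Log2 ratio of CPM in the Smo-cKO over the control library for 6 of the genes in 9 classes of mouse cells; bars are 95% counting intervals and there is 1 library for each genotype. Eno1 lies above the upper dotted line (the 25% threshold) in every class but vascular-like cells, Pkm and Ldhb lie near 0 in the progenitor and PyN-like classes, and Ldha lies below 0 in RG-like cells alone among the classes shown.

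Aldoa had ratios of 1.26 (1.21 to 1.31) in RG-like, 1.29 (1.22 to 1.36) in IPC-like and 1.22 (1.16 to 1.29) in PyN-like cells and 1.77 in cycling RG-like cells, where it was at 251 CPM in control and 444 in Smo-cKO. Its partner Aldoc was at ratios of 1.55, 2.62 and 2.18 in the 3 classes. In the Kif26b-led IPC-like cluster Aldoa was at 1.16 (1.05 to 1.27) and Pgk1 at 1.11 (0.821 to 1.5), both under the threshold. Tpi1 and Pgk1 passed it in IPC-like cells as a whole, at 1.31 (1.22 to 1.40) and 1.45 (1.22 to 1.72), and Pgk1 also in PyN-like cells, at 1.35 (1.13 to 1.61), while in RG-like cells Pgk1 was at 0.885 (0.771 to 1.02). Gapdh was at 1.19, 1.12 and 1.16, Hk1 at 1.11, 1.08 and 1.18 and Pkm at 0.884, 1.02 and 1.01. Ldha was at 0.919 (0.882 to 0.958) in RG-like cells, 1.22 (1.15 to 1.29) in IPC-like cells and, in PyN-like cells, at a log2 ratio of 0.32, just under the threshold, and Ldhb was at 1.08, 1.06 and 1.01. Within the IPC-like clusters Ldha was at 1.13 (1.05 to 1.21) and 1.12, the second with an interval that spans 1, and within the RG-like clusters at 0.977 (0.919 to 1.04) and 0.928 (0.877 to 0.983). Over the alternative settings the log2 ratio of Ldha in RG-like cells ran from -0.40 to 0.03, and the difference between classes in the Ldha ratio was not tested. In microglia-like cells the ratio was 1.41 for Aldoa, 1.40 for Tpi1, 1.37 for Gapdh, 1.53 for Pgk1 and 1.46 for Pkm. Ldha was at 1.18 and Ldhb at 0.522 in that class.

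Several properties of the libraries moved with genotype. RG-like cells held 4937 UMIs on average in control and 7218 in Smo-cKO, and PyN-like cells 3629 and 4240. In cells of 3000 to 6000 UMIs only, an alternative chosen after seeing the data, the RG-like log2 ratio of Eno1 was 0.62 against 0.65 in all cells, that of Aldoa was 0.24 against 0.33, that of Gapdh was 0.33 against 0.25, and that of Ldha was -0.40 against -0.12. The log2 ratio of Hk1 was -0.48 there against 0.15. In these cells Eno1 and Gapdh were higher and Hk1 and Ldha lower past the threshold, and the share of all genes past it there is not given. The 6 red blood cell genes of the marker list summed to 2201 CPM in control and 442 in Smo-cKO for RG-like cells, to 554 and 1007 in IPC-like cells, and to 21.3 and 917 in PyN-like cells. With hemoglobin, ribosomal protein and mitochondrially encoded genes left out of the total, Eno1 was at 0.62 and Aldoa at 0.30 in RG-like cells, under the threshold. Of 11 microglia markers 3 were at 0 in control and 2 in Smo-cKO RG-like cells, with sums of 3.20 and 8.10 CPM. In IPC-like cells the 15 RG markers summed to 1934 CPM in control and 2690 in Smo-cKO, and in PyN-like cells to 1034 and 1189. The part of these properties in the genotype ratios was not tested further.

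In bMIPC-like control cells 3 of 9 genes were lower than in RG-like cells by 1.5-fold or more and 0 were higher, against 23% and 14% of 9767 genes, and the count of 3 lower genes is near that background. These were Hk1, at 14.6 against 27.0 CPM and a ratio of 0.543 (0.385 to 0.753), Aldoa, at 316 against 574 and 0.550 (0.513 to 0.590), and Tpi1, at 208 against 394 and 0.527 (0.484 to 0.574). The sum of Hk1 and Hk2 was not lower, at 71.6 CPM (62.7 to 81.5) in bMIPC-like and 67.5 (61.3 to 74.1) in RG-like cells of control and at 86.5 (71.6 to 104) and 63.2 (57.9 to 68.9) in Smo-cKO. Ldha, at 634 against 650, had a ratio of 0.976 (0.925 to 1.03), Gapdh of 1.09 (1.05 to 1.13) and Pkm of 1.19 (1.12 to 1.26), while Ldhb was at 321 against 463, a ratio of 0.694 (0.646 to 0.745). The Ldha share was 66.4% (64.7 to 68.0) in bMIPC-like cells of control and 67.8% (65.3 to 70.1) in those of Smo-cKO. The cluster that holds most of these cells also expressed genes of DNA replication. Against cycling RG-like control cells instead, the ratio was 0.797 (0.561 to 1.11) for Hk1, 1.26 (1.17 to 1.36) for Aldoa, 0.638 (0.585 to 0.695) for Tpi1 and 1.36 (1.29 to 1.44) for Ldha. The order for Aldoa thus depended on which classes were compared. Cycling bMIPC-like control cells, a class of their own, had Aldoa at 165 CPM, where cycling RG-like control cells had 251. Hk1 was at 10.5 against 18.4 there, Tpi1 at 198 against 326 and Ldha at 479 against 466. In the Smo-cKO library, with 148 bMIPC-like cells, the ratios to RG-like cells were 0.738 (0.487 to 1.08) for Hk1, 0.592 for Aldoa, 0.589 for Tpi1 and 1.28 (1.19 to 1.37) for Ldha. The ferret class of this name, 77 and 128 cells, was 1 cluster led by OLIG1, PDGFRA and BCAN, with genes of oligodendrocyte precursors among its leading genes, while the mouse cluster that holds most bMIPC-like cells was led by Olig1 and Olig2, with genes of DNA replication and Egfr after them. In the ferret class HK1 was at 1.12 (0.799 to 1.54) and 0.863 (0.663 to 1.11) of the RG-like level in sets 1 and 2, ALDOA at 0.876 (0.616 to 1.22) and 0.860 (0.685 to 1.07), TPI1 at 0.661 and 0.477 and LDHB at 0.782 and 0.80.

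Across clusters most of the genes varied together and a few did not. Over 37 points, each a mouse cluster in 1 library with at least 50 cells, the correlation (Pearson r of log2 of CPM plus 1) of a gene with the mean of the other listed genes was 0.93 for Tpi1, 0.90 for Eno1, 0.88 for Aldoa, 0.85 for Pgk1, 0.85 for Ldha, 0.84 for Gapdh, 0.66 for Pkm and 0.58 for Pfkp. It was -0.34 for Hk1 and -0.69 for Ldhb. Over 44 ferret points it ran from 0.47 for PGK1 to 0.81 for GAPDH and ALDOA, with 0.18 for LDHB and -0.04 for HK1. Outside the lists, the genes most like the mean of the 10 in the mouse were Sdc4 (0.94), Asah1 (0.92), Gm2a (0.90), Cebpb (0.89) and Cd44 (0.89), among 9863 genes, and in the ferret AK3, GLO1, CHCHD2, SDHD and RPL13, at 0.82 to 0.84 among 10799. The mouse points include microglia-like clusters, the named class with the highest share of the 10 genes. That class had Ldhb at only 66.8 CPM in control and 34.8 in Smo-cKO. How far these clusters set the mouse correlations was not tested. The points share libraries and depth and the clusters of 1 class resemble each other, so these values describe the clusters and carry no test.

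Some counts are less certain than their intervals. Of all windows of 90 bases in the last 500 bases of the coding transcripts of Gapdh, 56.6% occurred unchanged in a transcript of another annotated gene (74 genes in all, of which Gm3839 had a row), and of those of Eno1, 60.3% did so (4 genes, of which Eno1b had a row with 354 UMIs). For Ldhb the share was 13.2%, for the other listed genes it was at most 2.68%, and how reads that match several genes were counted is not given in the sources used here.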

How the data were processed

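Single cells of the cortex were captured on the 10x Genomics Chromium platform and sequenced. The authors counted UMIs with Cell Ranger and deposited, per species, a table of UMI counts (whole numbers, not normalized) with genes in rows and cells in columns. The submitters' processing notes also name StringTie, Seurat 3 and the mouse build mm10. The Cell Ranger version, the annotation and the ferret build are not given in the sources used here. The study states limits of 750 to 5000 genes and under 10% mitochondrial transcripts per cell and gives 10524 control, 7596 Smo-cKO and 23482 ferret cells. The tables held 10524, 7596, and 10190 plus 13292 barcodes, of which these limits left 10498, 7209, and 10185 plus 13052, and those were used. Barcode suffixes were tied to the mouse genotypes by the stated cell numbers, which match the tables. The ferret suffixes could not be tied to the labelled samples. The deposited counts summed to 52287727 and 43283675 UMIs for the mouse and 30574227 and 56361053 for the ferret.

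Cells were clustered in Seurat 5.3.0 (R 4.3.3) with 2000 variable genes, 30 dimensions, integration of the libraries of a species and a resolution of 0.8, without the listed and pathway genes. A cluster was named when at least 3 marker genes of a type stood out in it. These names are rebuilt and may differ from the study's, and doublets were not removed. Counts were summed over the cells of a class in a library and divided by the class total (CPM, per 1000000 UMIs). Ratios have exact conditional binomial intervals, levels Poisson and shares Clopper-Pearson intervals, all at 95% (SciPy 1.17.1 and NumPy 2.4.6 in Python 3.11.15; plots used matplotlib 3.10.9). They cover counting error only. With 1 library for each genotype there was no test. A gene entered a comparison with 50 UMIs or more and was counted as higher or lower past 1.5-fold between classes and past a 25% excess of the larger level between genotypes. All listed genes are named. Of the other lists the isozyme partners are named, and elsewhere up to 3 genes with the largest log2 ratio; the rest of a count of 5 or fewer was named after its values were seen. Scripts were tested on simulated data. The members and lists were chosen with earlier results of these data known. Mouse coordinates are those of GENCODE mouse release 21 for GRCm38.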

Additional observations from a re-analysis of the deposited data

How the results depend on the processing

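Each result was recomputed with other settings: no integration, resolutions of 0.4 and 1.6, the listed genes kept in the clustering, cells chosen one by one by markers, a stricter cell filter, cells weighing equally, other totals, no cells with the most UMIs, and other fold thresholds. Cells of 3000 to 6000 UMIs and RG-like cells without the Gfap cluster were added after seeing the data. Of 198 recomputed counts of genes past the threshold 184 stayed within 1.5 times and 14 moved, and of 843 single-gene ratios 682 stayed within the counting interval. Of the results past the threshold 0 changed sign under another setting, while 34 recomputed ratios of results under it did, in 11 pairs of gene and comparison, among them Hk1 in RG-like cells between genotypes and Ldha in bMIPC-like against RG-like cells. The clusters of a class on their own were also added after seeing the data. No paired analysis was possible because each genotype had 1 library and the ferret sets come from 1 animal. At a resolution of 0.4 no bMIPC-like class was named, so that comparison had no value.

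The 1 gene higher in PyN-like cells (Ldhb) became 0 in control with cells chosen one by one, and 0 in Smo-cKO with that setting, at a resolution of 1.6, with mitochondrial, ribosomal and hemoglobin genes left out of the total, with the median ratio as the scale, and without the Gfap cluster. At a threshold of 25%, ferret set 1 had 8 genes lower and bMIPC-like against RG-like cells 6. Between genotypes, RG-like cells had 1 gene higher at 1.5-fold or with those genes left out of the total and 2 lower in cells of 3000 to 6000 UMIs. IPC-like cells had 1 higher at 1.5-fold, and PyN-like cells 1 with cells chosen one by one and 0 at 1.5-fold. The share of all genes past the threshold is not given for these settings, so the counts here have no background. The causes were not tested.

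The Ldha share moved beyond its counting interval as follows. With cells chosen one by one it was 54.9% and 51.3% in RG-like, 30.8% and 30.3% in IPC-like and 15.1% and 16.6% in PyN-like cells of control and Smo-cKO, 27.0% in ferret IPC-like cells of set 2, and 38.9% and 37.8% in ferret PyN-like cells. Without integration it was 55.3%, 25.5% and 13.6% in RG-like, IPC-like and PyN-like control cells, 29.7% in Smo-cKO IPC-like and 25.8% in ferret set 2 PyN-like cells. At a resolution of 0.4 it was 55.8% in control RG-like and 25.2% and 24.3% in ferret PyN-like cells. At 1.6 it was 35.5% and 36.3% in IPC-like cells of control and Smo-cKO, 13.7% in control PyN-like and 33.2% and 29.8% in ferret PyN-like cells. With the listed genes kept in the clustering it was 24.8% and 24.2% in ferret PyN-like cells. Without the cells with the most UMIs it was 12.2% and 14.7% in mouse PyN-like cells. In cells of 3000 to 6000 UMIs it was 47.5%, 25.7% and 14.8% in RG-like, IPC-like and PyN-like Smo-cKO cells and 35.2% in ferret set 1 PyN-like cells. Without the Gfap cluster it was 52.3% and 49.7% in RG-like cells of control and Smo-cKO. The causes were not tested. In every setting the share was higher in RG-like than in PyN-like cells of both mouse libraries, and lower in both ferret sets.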
